A study of Homo sapiens with 8 samples.

Results

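Ribosome footprints were compared between T3M4 cells carrying a guide RNA against METTL13 (sgMETTL13) and T3M4 cells carrying a control guide that targets no gene (sgControl). T3M4 is an established human pancreatic cancer line. The comparison used the 4 footprint libraries among the 8 libraries of the series, 2 for each guide, and the other 4 were RNA-seq libraries of the same kinds of cells. Cells of both groups had gone without serum for 18 h and had then received 10% FBS for 2 h before they were frozen and lysed. The labels name 1 guide population per group and leave unsaid if replicates came from different cultures; the p-values therefore cover the spread between these libraries, which may be technical. Every one of the 14668 gene symbols in the count table was a candidate, 354 of them had no footprint, and 10714 had enough footprints to be tested. Of the tested genes, 10428 lay outside the translation machinery (ribosomal proteins, translation factors, aminoacyl-tRNA synthetases and mitochondrial ribosomal proteins), and the account below is of these. METTL13 was counted with the machinery and is described as well.

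A translating ribosome shields a short stretch of mRNA from nuclease, and sequencing the shielded fragments counts ribosomes on each gene. Here the ribosomes were pulled down after digestion with a bead-bound analog of puromycin, a molecule that enters the ribosome in place of an aminoacyl-tRNA. Footprint abundance follows both the amount of an mRNA and how densely it is translated. METTL13 is a methyltransferase of the elongation factor eEF1A, which brings aminoacyl-tRNAs to the ribosome.

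Footprint libraries held 6063885 to 9837253 counts, and levels are given in CPM, counts scaled to library size. A gene without a footprint could still have up to 3 counts, or 0.305 to 0.495 CPM depending on the library, for counting error only. METTL13 itself read 65.2 and 57.8 CPM with sgControl and 20.1 and 26.2 CPM with sgMETTL13, and the groups did not overlap. The 12 epithelial and ductal markers summed to between 2450 and 2610 CPM in every library, whereas 5 endothelial markers stayed below 1 CPM each. Fibroblast markers were mixed: COL1A2 had no footprint, but COL1A1 read 20.3 to 24.3 CPM and ACTA2 2.31 to 4.93 CPM. PRSS1, the only 1 of 6 acinar and islet markers in the count table, had no footprint. Of the embryonic kidney line markers, NEFL read 63.9 to 113 CPM and WT1 1.98 to 3.25 CPM. The standard deviation (SD) of the log2 difference between libraries was 0.348 within sgControl and 0.295 within sgMETTL13. Between the groups it was 0.376 for the pair of replicates numbered 1 and 0.621 for the pair numbered 2. The libraries thus lay in a row with sgControl replicate 2 at one end, sgMETTL13 replicate 2 at the other, and both replicates 1 between them.

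Footprints changed in both directions. By edgeR's quasi-likelihood test with Benjamini-Hochberg adjustment over all 10714 genes (adjusted p below 0.05), 958 genes (8.94%) were higher and 1287 (12.0%) were lower in sgMETTL13. A single model over all 8 libraries, footprints and RNA together, called 0 genes in either direction, and DESeq2 on the 4 footprint libraries called 589 higher and 846 lower. Outside the translation machinery 880 were higher and 1261 were lower. A call is described as held when the gene also passed, in the same direction, in each of the 4 fits that left out 1 library. Over all tested genes 176 higher calls (1.64%) and 328 lower calls (3.06%) held, of which 155 and 320 lay outside the translation machinery. The changes were mostly moderate, with a log2 fold change of at least 1 in size in 135 higher and 198 lower genes. Replicates of sgControl differed in these genes too: replicate 2 lay below replicate 1 in 853 of the 958 higher genes and above it in 1196 of the 1287 lower genes, against 4084 above and 4385 below among the genes not called. The calls numbered 314 higher and 510 lower without sgControl replicate 2, and 254 and 447 without sgMETTL13 replicate 2. Without sgControl replicate 1, the higher genes numbered 1404.

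The 20 largest losses included several genes of transcription factors. NKX1-2, a homeobox gene on chromosome 10 from 124445243 to 124450035 (GRCh38), read 17.9 and 29.4 CPM with sgControl and 4.27 and 3.18 CPM with sgMETTL13. FOXD1, a forkhead factor gene on chromosome 5 from 73446266 to 73448777, read 81.2 and 142.8 CPM with sgControl and 29.5 and 17.7 CPM with sgMETTL13. In both genes the groups were far apart and sgControl replicate 2 was the highest library, so the size of the loss depended on which control was used. Its direction could not, because groups without overlap were a condition for choosing these genes. Their log2 fold changes were -2.64 (SE 0.257) and -2.23 (SE 0.209), and both calls held. The 100 bases before the annotated start of these genes are shown with those of H2BC21 and COMMD3, 2 of the largest gains, because promoter base content is set against the footprint changes further on. Capitals mark runs of 8 or more G or C, lower case all other bases, and each is given 5′ to 3′ on the strand of the gene.
NKX1-2, chr10:124450036-124450135, minus strand: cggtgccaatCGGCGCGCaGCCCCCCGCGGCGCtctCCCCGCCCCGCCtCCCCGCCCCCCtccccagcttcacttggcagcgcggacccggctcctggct
FOXD1, chr5:73448778-73448877, minus strand: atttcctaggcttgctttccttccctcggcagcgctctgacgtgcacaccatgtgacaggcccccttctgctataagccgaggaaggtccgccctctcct
H2BC21, chr1:149886683-149886782, minus strand: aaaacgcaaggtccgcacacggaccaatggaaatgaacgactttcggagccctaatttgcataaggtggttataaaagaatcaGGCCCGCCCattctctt
COMMD3, chr10:22316288-22316387, plus strand: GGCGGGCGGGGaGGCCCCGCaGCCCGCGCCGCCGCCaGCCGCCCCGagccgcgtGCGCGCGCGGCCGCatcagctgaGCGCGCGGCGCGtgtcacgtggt

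In these windows (RefSeq, GRCh38.p14) GC made up 80.0% in NKX1-2, 59.0% in FOXD1, 47.0% in H2BC21 and 85.0% in COMMD3. Both ends of this range were thus gains, and both losses lay between them. IER5L, a relative of the immediate early gene IER5 on chromosome 9, came next among the losses. It read 72.3 and 120.2 CPM with sgControl and 19.9 and 20.97 CPM with sgMETTL13, a log2 fold change of -2.23 (SE 0.185). INKA1, an inhibitor of the kinase PAK4 encoded on chromosome 3, read 16.8 and 25.6 CPM against 5.79 and 4.39 CPM, with a log2 fold change of -2.03. UBE2M, an enzyme that conjugates the ubiquitin-like protein NEDD8 to cullins, read 48.4 and 71.1 CPM with sgControl and 15.1 and 16.1 CPM with sgMETTL13. Groups do not overlap in any of the 20 largest losses or gains, because that was a condition for choosing them. The nucleosome assembly relative NAP1L5 read 13.5 and 19.7 CPM against 5.49 and 4.17 CPM, and the lysosome positioning subunit BORCS6 9.92 and 15.6 CPM against 3.66 and 4.50 CPM.

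The remaining losses of the 20 largest, which leave METTL13 aside, were of several kinds. BABAM1, a subunit of the BRCA1-A DNA repair complex, read 122.5 and 194.1 CPM with sgControl and 68.1 and 44.4 CPM with sgMETTL13 (log2 fold change -1.49, SE 0.181). CDKN2B, the cyclin-dependent kinase inhibitor p15, was the 1 among these 20 whose sgControl libraries stood in the other order, at 17.7 and 17.3 CPM against 6.10 and 6.81 CPM (-1.44, SE 0.218). The zinc finger factor BCL11A (log2 fold change -1.52), the synaptic protein gene CPLX1 (-1.58), the nuclear envelope protein gene TMEM201 (-1.45) and the deubiquitinase gene USP35 (-1.34) fell as well. HMGA2, IRX3, SOX12, CHIC1, PIMREG and the unnamed locus LOC114841035 completed the held calls at -2.00 to -1.33. OVOL2, a zinc finger repressor of mesenchymal genes, was the 1 of the 20 whose call did not hold, at 6.53 and 12.3 CPM against 4.78 and 1.98 CPM (-1.42, SE 0.329). A larger loss on few reads lay outside the 20, in the zinc transporter gene SLC30A5, which had 30 and 39 counts in sgControl and 5 and 3 in sgMETTL13 (edgeR adjusted p = 5.44e-06).

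**Figure D1:**
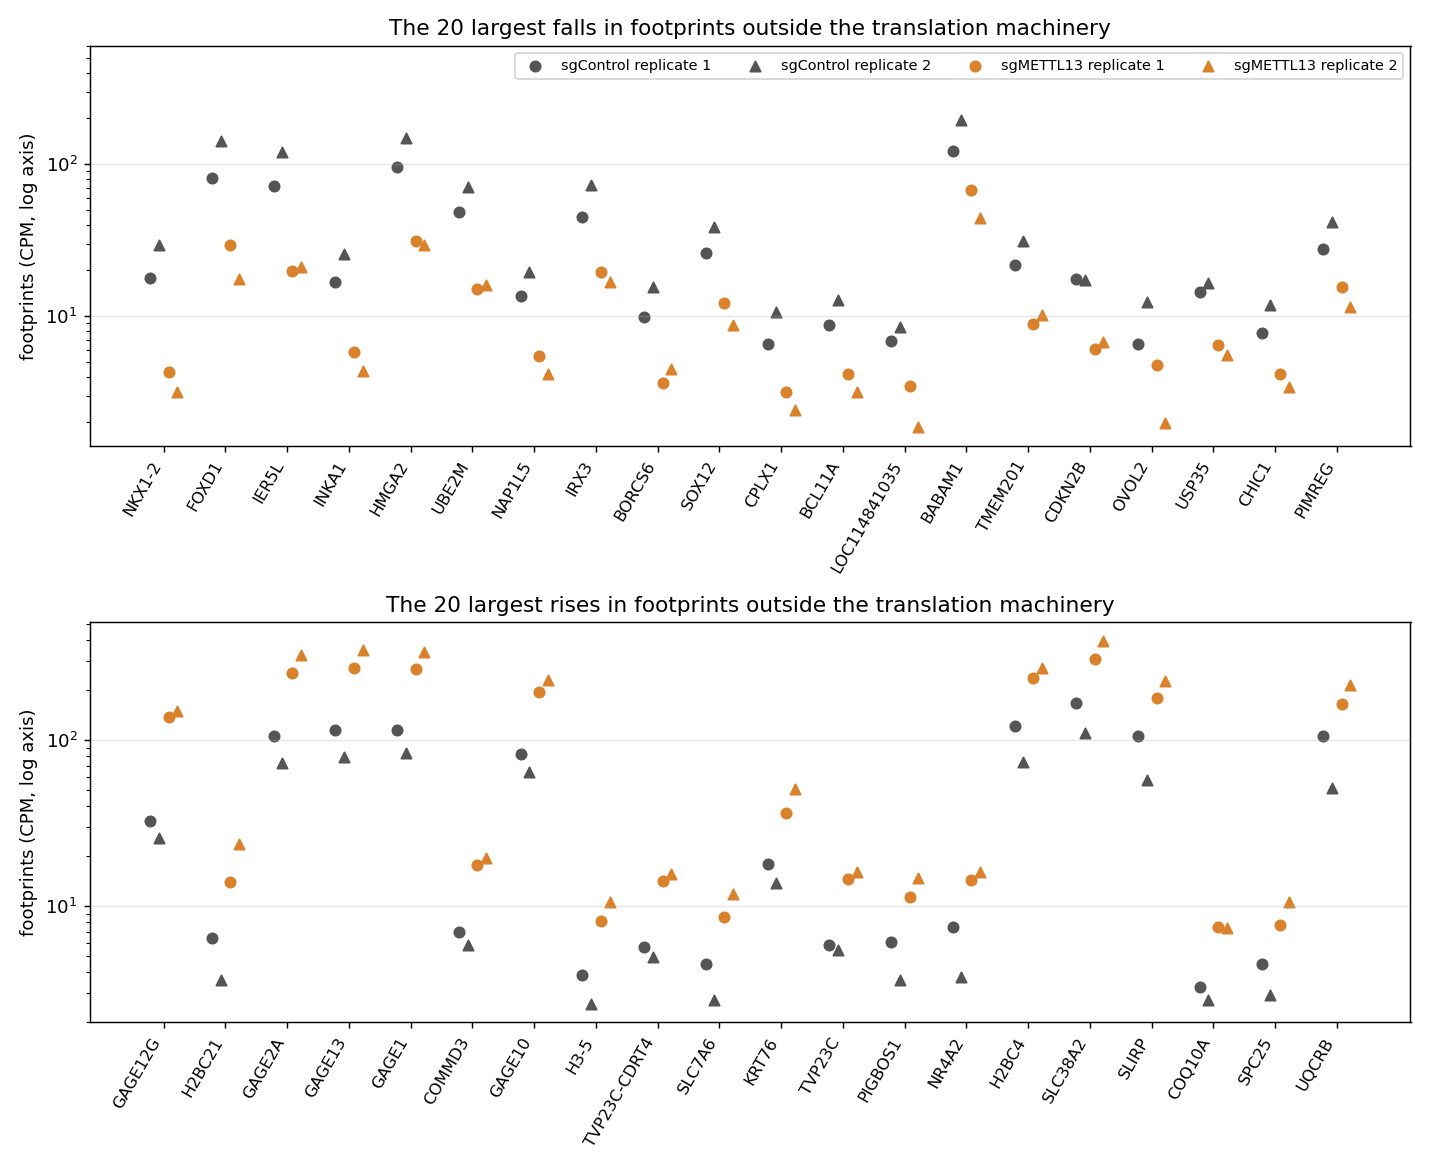
Footprint level in CPM (log axis) of the 20 genes that fell most (upper panel) and the 20 that rose most (lower panel), with 1 point per library: grey for sgControl, orange for sgMETTL13, circles for replicate 1 and triangles for replicate 2. In the upper panel sgControl replicate 2 is the highest library of every gene except CDKN2B, and in the lower panel it is the lowest library of every gene.

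The 20 largest gains included histone genes, transporters, small mitochondrial proteins and cancer-testis antigens. H2BC21, a histone H2B gene on chromosome 1, read 6.41 and 3.59 CPM with sgControl and 13.9 and 23.6 CPM with sgMETTL13 (log2 fold change 1.85, SE 0.270). COMMD3, a subunit of a complex that recycles membrane receptors, read 7.02 and 5.81 CPM against 17.7 and 19.5 CPM (1.52, SE 0.221). The amino acid exchanger SLC7A6 read 4.48 and 2.74 CPM against 8.64 and 11.9 CPM. SLC38A2, the sodium-coupled neutral amino acid transporter SNAT2, read 166.1 and 109.6 CPM with sgControl and 307.1 and 397.3 CPM with sgMETTL13. All 4 calls held. COMMD3 overlaps the readthrough gene COMMD3-BMI1, which was not called (log2 fold change 0.00), and H2BC21 resembles the other H2B genes, so reads may be shared in both. PIGBOS1, a small protein of the mitochondrial outer membrane, rose by 1.39 on the log2 scale. SLIRP, which binds mitochondrial transcripts, rose from 106.2 and 57.8 CPM to 178.4 and 227.3 CPM. COQ10A, a binder of coenzyme Q, rose by 1.29 and the kinetochore gene SPC25 by 1.27, the last without holding.

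Several called genes, most of them gains, could not be tied to 1 gene. The GAGE antigens of chromosome X, normally made in testis, occupied 5 of the 20 places, all 12 tested copies were called higher and held, and the counts of 8 of the 12 agreed within 8 counts in every library, so these copies amount to 1 measurement. KRT76 had 149 and 81 footprint counts in sgControl and 358 and 465 in sgMETTL13 but 0 mRNA counts in every RNA library, and KRT71, KRT79 and KRT72 had at most 2 mRNA counts in any library. H3-5 had 3 to 19 mRNA counts, and its protein is nearly identical to that of H3-3B. MAP1LC3B and MAP1LC3B2 rose together on nearly equal counts, from 13 and 10 to 55 and 48 in the first and from 11 and 10 to 51 and 46 in the second. TVP23C and TVP23C-CDRT4 overlap and shared their counts. In UQCRHL, a lower call, 3217 to 4462 footprint counts stood beside 175 to 596 mRNA counts, and in its parent gene UQCRH 132 to 316 footprint counts beside 3639 to 12645. Footprints are short, the sources used here do not say how reads with several matches were counted, and these genes are therefore uncertain. Over all calls, 38 higher and 25 lower genes had too little mRNA for the RNA expression filter.

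Among factors that set cell identity in development, losses outnumbered gains. Of 43 homeobox genes tested 1 was higher and 9 lower (2.33% and 20.9%), of 17 forkhead genes 1 and 4 (5.88% and 23.5%), and of 8 SOX genes none and 4 (0% and 50%). Over all tested genes the shares were 8.94% higher and 12.0% lower, and these are the values to set beside each pair of shares below. The list medians were -0.19, -0.25 and -0.49 on the log2 scale, against 0.01 over all tested genes. Besides NKX1-2, IRX3 read 44.9 and 73.0 CPM with sgControl and 19.5 and 16.8 CPM with sgMETTL13, and HOMEZ, a leucine zipper homeobox protein, 94.5 and 118.0 CPM against 55.6 and 39.9 CPM. Calls of these 3 homeobox genes held, as did those of FOXD1 and SOX12. SOX9, a ductal progenitor factor of the pancreas, read 39.2 and 43.8 CPM against 24.6 and 27.4 CPM (log2 fold change -0.67, SE 0.161), and FOXA1, a pioneer factor of foregut tissues, 2.42 and 2.22 CPM against 0.914 and 1.21 CPM (-1.13, SE 0.412). SOX9 and FOXA1 did not hold. The 1 homeobox gene called higher was HOXB9 (0.89). Among 38 basic helix-loop-helix factors 2 were higher and 9 lower (5.26% and 23.7%). TCF3, the E protein that pairs with tissue-specific members of the family, fell by 0.70 and held, while HIF1A, the oxygen-regulated subunit of HIF-1, rose by 0.55 and held. Leaving out sgControl replicate 2, the lower members numbered 4 homeobox, 1 forkhead, 2 SOX and 1 helix-loop-helix, and without sgMETTL13 replicate 2 they numbered 3, 1, 2 and 4. Without sgMETTL13 replicate 1, 2 forkhead, 2 SOX and 5 helix-loop-helix genes were lower.

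Lists of chromatin regulators differed among themselves. Of 57 subunits of acetyltransferase and deacetylase complexes 1 was higher and 12 lower (1.75% and 21.1%), of 62 chromatin remodeller genes 2 and 14 (3.23% and 22.6%), and of 31 polycomb group genes 2 and 9 (6.45% and 29%). MBD3, a subunit of the NuRD deacetylase and remodelling complex, read 80.7 and 120.5 CPM with sgControl and 47.2 and 32.6 CPM with sgMETTL13 (log2 fold change -1.32, SE 0.176). Another NuRD subunit, GATAD2B, fell by 0.77 and the SWI/SNF subunit SMARCD2 by 0.62, and these calls held. The class IIa deacetylases HDAC4 (-1.02) and HDAC9 (-0.99) were called without holding. Among polycomb genes the held losses were PCGF6 (-1.14), CBX2 (-1.01), ASXL1 (-0.94) and JARID2 (-0.62), and RBBP4, a histone-binding subunit shared by several of these complexes, rose by 0.90 and held. When sgControl replicate 2 was dropped, the lower members numbered 3, 4 and 5 in the 3 lists, without sgMETTL13 replicate 2 they numbered 6, 5 and 4, and without sgMETTL13 replicate 1 the first 2 numbered 5 and 9. Histone methyltransferases and demethylases gave 5 higher and 4 lower of 69 (7.25% and 5.8%), with a median of 0.04; the higher ones numbered 1 without sgControl replicate 2 and 1 without either sgMETTL13 replicate, and the lower ones 9 without sgControl replicate 1.

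Replication-dependent histones, whose transcripts close with a stem-loop and carry no poly(A) tail, gave 20 higher and 4 lower of 45 (44.4% and 8.89%), with 9 and 2 held and a median of 0.44. H2BC4 read 121.7 and 73.5 CPM with sgControl and 236.9 and 271.5 CPM with sgMETTL13, and H2BC9 155.1 and 101.1 CPM against 255.7 and 247.0 CPM. In both genes sgControl replicate 1 was nearer to sgMETTL13 than replicate 2 was. H3C1 went the other way, at 178.3 and 265.7 CPM against 116.3 and 120.3 CPM (log2 fold change -0.90, SE 0.149). Members of 1 histone class are similar in sequence and may share reads. The acidic histone chaperone ANP32A fell from 982.4 and 1324 CPM to 717.3 and 477.9 CPM. Without sgMETTL13 replicate 2, 9 replication-dependent histones were higher and 2 lower, and without sgMETTL13 replicate 1, 2 were lower.

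Genes induced early by serum were called in both directions. Of 32 immediate early and IER genes 8 were higher and 6 lower (25% and 18.8%), with 5 and 4 held. All 3 members of the NR4A family of orphan nuclear receptors rose and held: NR4A2 read 7.50 and 3.76 CPM with sgControl and 14.4 and 16.1 CPM with sgMETTL13, NR4A1 65.1 and 60.7 CPM against 109.1 and 130.3 CPM, and NR4A3 5.20 and 5.47 CPM against 10.5 and 12.6 CPM. In NR4A1 and NR4A3 the sgControl libraries were close to each other, so that the gap between groups exceeded the gap within them. The matricellular genes CCN1 and CCN2 rose likewise, at 1.23 and 0.98. IER5L was joined by IER2 and IER5: IER2 read 140.6 and 204.5 CPM against 87.3 and 80.5 CPM, and IER5 fell by 0.84. SERTAD1, a cofactor of cyclin D complexes, fell by 1.02, and these 3 calls held. PPARD, a fatty acid receptor of the nuclear receptor family, fell by 1.02 and held.

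Cytokine and NF-kB genes were also called in both directions. Of 94 genes of cytokines, chemokines and NF-kB signalling 13 were higher and 16 lower (13.8% and 17%), with 3 held in each direction. The held gains were IL1A, which encodes interleukin-1 alpha and read 150.1 and 140.4 CPM with sgControl and 305.9 and 311.9 CPM with sgMETTL13, EDN1, which encodes endothelin-1 (19.4 and 14.02 against 35.2 and 43.6 CPM), and PTGS2, which encodes cyclooxygenase-2 (32.4 and 30.6 against 61.0 and 63.9 CPM). All 3 held losses were of regulators inside the cell: the inhibitor NFKBIB (-0.98), the adaptor TNIP2 (-0.73) and the subunit NFKB2 (-0.68). Receptor adaptors TRAF2, TRAF4 and TRAF7 were also lower, at -0.61 to -0.56, without holding. Of 79 interferon response and antigen presentation genes 15 were higher and 6 lower (19% and 7.59%). B2M, the light chain of class I molecules, read 154.1 and 126.4 CPM against 217.8 and 262.1 CPM and held (0.77, SE 0.137). Without sgControl replicate 2 the cytokine list gave 4 higher and 4 lower and the interferon list 4 higher. Without sgMETTL13 replicate 2 these were 5 and 5, and 3 higher with 2 lower, and without sgMETTL13 replicate 1, 9 cytokine list genes were lower and 8 interferon list genes higher.

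In protein degradation, higher calls outnumbered lower ones in the proteasome, in cullin ligases and neddylation and among ubiquitin-conjugating enzymes, and lower calls outnumbered higher ones among RNF and TRIM ligases. In the first 3 of these lists the held calls went the other way. They numbered 2 higher and 3 lower, 0 and 2, and 1 and 3. Of 50 proteasome genes 14 were higher and 4 lower (28% and 8%). PSMC6, an ATPase of the regulatory particle, read 79.4 and 63.4 CPM with sgControl and 135.0 and 148.9 CPM with sgMETTL13 and held, as did PSME2 of the interferon-induced activator (0.75). The immunoproteasome subunits PSMB8 (4.23 and 2.56 CPM against 8.33 and 7.79 CPM) and PSMB9 (log2 fold change 1.28) rose on few reads without holding. All 3 held losses concerned neighbours of the particle: the assembly chaperones PSMG1 (-0.78) and PSMG3 (-0.80), and PSMC3IP (-1.004), a meiotic recombination factor that the symbol pattern of the list caught. Among 43 genes of cullin ligases and neddylation 9 were higher and 3 lower (20.9% and 6.98%). NEDD8 itself read 635.8 and 788.1 CPM against 480.2 and 442.1 CPM and held with its conjugating enzyme UBE2M, whereas the RING subunit RNF7 (0.72) and the adaptor ELOB (0.98) were called higher without holding. Ubiquitin-conjugating and E1 enzymes gave 5 higher and 3 lower of 41 (12.2% and 7.32%), with a median of 0.23, and the higher ones numbered 9 without sgControl replicate 1, 1 without sgControl replicate 2, 8 without sgMETTL13 replicate 1 and 2 without sgMETTL13 replicate 2. Of 98 RNF and TRIM ligases 7 were higher and 16 lower (7.14% and 16.3%), 1 and 7 of them held, and 6 of the 7 held losses were TRIM genes. TRIM44 read 401.9 and 507.2 CPM against 273.0 and 222.4 CPM, and TRIM41, TRIM11 and TRIM14 fell by 0.96, 0.90 and 0.89. FBXW7, the ligase adaptor that targets MYC and cyclin E, fell by 1.07 and held. Leaving out sgControl replicate 2, the higher members numbered 5 for the proteasome, 2 for cullins and 2 for RNF and TRIM genes, and without sgMETTL13 replicate 2 they numbered 4, 1 and 1. The lower RNF and TRIM genes then numbered 7 and 8, and without sgControl replicate 1 the higher ones numbered 11.

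Among subunits of the respiratory chain, gains outnumbered losses. Of 81 nuclear-encoded subunits of oxidative phosphorylation 19 were higher and 6 lower (23.5% and 7.41%), with 7 and 2 held. Complex I subunits made up 5 of the held gains. NDUFB4 read 19.8 and 14.5 CPM with sgControl and 40.6 and 40.5 CPM with sgMETTL13, and NDUFS5 119.3 and 97.6 CPM against 185.7 and 237.6 CPM. NDUFA5 and NDUFB5 rose by 0.97 and 0.90, and the readthrough gene NDUFC2-KCTD14, whose reads overlap NDUFC2, by 1.01. ATP5F1E, the epsilon subunit of ATP synthase, rose by 1.05, and UQCRB of complex III from 105.9 and 51.3 CPM to 165.1 and 215.5 CPM. The held losses were COX6A1 of complex IV, at 264.0 and 357.0 CPM against 203.9 and 158.2 CPM, and NDUFB7 of complex I (-0.67). The import pore of the outer membrane split: TOMM7 rose by 0.99, while TOMM22 and TOMM5 fell by 0.81 and 0.86, all 3 held. Without sgControl replicate 2 or without sgMETTL13 replicate 2, 8 oxidative phosphorylation genes were higher, and the lower ones numbered 3 and 2. Without sgMETTL13 replicate 1, 3 were lower.

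Gains also outnumbered losses among redox and amino acid genes. Of 57 redox and detoxification genes 15 were higher and 6 lower (26.3% and 10.5%), with a median of 0.17. The held gains were AKR1C3, an aldo-keto reductase (22.7 and 21.2 CPM with sgControl, 43.2 and 39.4 CPM with sgMETTL13), ALDH3A1, an aldehyde dehydrogenase (48.0 and 36.8 against 74.8 and 74.7 CPM), the microsomal glutathione transferase MGST1 (0.80) and the cystine importer SLC7A11 (0.84). GSTP1, the cytosolic glutathione transferase, went the other way, from 2846 and 3826 CPM to 2101 and 1834 CPM, and held. In AKR1C3 the sgControl replicates differed little, whereas in GSTP1 they lay farther apart than sgControl replicate 1 and sgMETTL13 replicate 1. Of 47 genes of amino acid and one-carbon metabolism 9 were higher and 3 lower (19.1% and 6.38%). PSAT1 and PSPH, consecutive enzymes of serine synthesis, rose to 328.1 and 372.1 CPM from 186.2 and 133.4 CPM and to 70.4 and 75.7 CPM from 44.8 and 38.5 CPM, and both held. GCSH, a carrier protein of the glycine cleavage system, was lower (-0.79) without holding. When sgControl replicate 2 was dropped, 5 redox genes were higher and 2 lower, and without sgMETTL13 replicate 2, 4 and 1. The amino acid list then gave 2 higher and 0 lower, and without sgMETTL13 replicate 1, 3 redox genes and 1 amino acid gene were lower.

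Compartments of the endomembrane system held genes of both directions. Of 59 lysosomal enzymes and V-ATPase subunits 10 were higher and 2 lower (16.9% and 3.39%), none held, and none was higher without sgMETTL13 replicate 2. The protease CTSC read 22.99 and 17.3 CPM with sgControl and 30.6 and 42.4 CPM with sgMETTL13. Of 100 genes of endosomes, ESCRT and lysosome positioning 16 were higher and 17 lower (16% and 17%). VPS26A, a subunit of the retromer that returns cargo from endosomes, rose by 0.87, and CHMP5 of the ESCRT machinery from 171.8 and 126.4 CPM to 231.0 and 294.6 CPM. Alternative subunits went apart, since VPS26B, the paralog of VPS26A, was lower (-0.81) without holding. BORCS6 and BLOC1S3, subunits of the related BORC and BLOC-1 complexes, fell by 1.62 and 1.75, and AP3D1 of the AP-3 coat by 0.71, while its partner subunit AP3M1 rose by 0.65. These last 4 calls held. Without sgControl replicate 2 the endosome list gave 5 higher and 8 lower, and without sgMETTL13 replicate 2, 4 and 6. Lysosomal genes called higher numbered 3 without sgControl replicate 2 and 4 without sgMETTL13 replicate 1.

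Cytoskeletal genes were called in both directions, with more losses than gains in the actin and junction lists. Of 65 actin genes 5 were higher and 12 lower (7.69% and 18.5%). ARPC3, a small subunit of the Arp2/3 complex, read 27.7 and 18.98 CPM with sgControl and 52.2 and 57.1 CPM with sgMETTL13 and held. The actin elongation factor ENAH (-0.80), the spectrin SPTBN1 (-0.72) and the Arp2/3 inhibitor CORO1B (-0.65) fell and held. In nonmuscle myosin the heavy chains MYH14 and MYH9 fell by 0.98 and 0.39, and the regulatory light chains MYL12A and MYL12B rose by 0.84 and 0.74, with MYH14 and MYL12A held. INKA1, the exchange factor PLEKHG5 (-0.97) and the Cdc42 effectors CDC42EP4 (27.3 and 30.9 CPM against 15.6 and 12.7 CPM) and CDC42EP1 (18.0 and 23.8 against 9.35 and 11.2 CPM) fell and held, and CDC42EP2 was lower without holding (-0.72). Of 46 junction genes 4 were higher and 10 lower (8.7% and 21.7%). MARVELD3 of tight junctions fell by 1.01, cingulin (CGN) by 1.13 and the LIM protein AJUBA by 0.85, while CLDN1, which encodes claudin-1, rose by 0.56, all held. Leaving out sgControl replicate 2, the actin and junction lists gave 7 and 4 lower and 3 and 1 higher genes. Without sgMETTL13 replicate 2 they gave 3 and 5 lower and 1 and 1 higher, and without sgMETTL13 replicate 1, 7 actin genes were lower and 2 junction genes higher.

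S100 proteins, small calcium-binding proteins, and annexins gave 6 higher and 0 lower of 23 (26.1% and 0%), none of them held. S100A11 read 32.8 and 22.4 CPM with sgControl and 42.6 and 71.8 CPM with sgMETTL13, so the sgMETTL13 replicates differed from each other more than replicate 1 did from sgControl. Without sgMETTL13 replicate 2 no member was higher, and without sgControl replicate 2, 3 were. Keratins and other intermediate filaments gave 6 higher and 8 lower of 39 (15.4% and 20.5%). The 5 held gains were the keratins with footprints but almost no mRNA named above and KRT3, with 3 to 9 mRNA counts, and the held losses were the nuclear lamin LMNB2 (-0.82), the keratin KRT10 (-0.72) and the plakin EVPL (-0.71). LMNB2 read 1216 and 1630 CPM against 872.3 and 736.0 CPM. Fits lacking sgControl replicate 2 or sgMETTL13 replicate 1 gave 5 lower members each, and the one lacking sgMETTL13 replicate 2 gave 3.

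Losses outnumbered gains among cyclins and their kinases and among p53 targets, but not in the other cell cycle lists. DNA replication gave 6 higher and 5 lower of 64 genes, and mitosis and kinetochore 8 and 7 of 73. The list of APC/C, cohesin and condensin gave 4 and 2 of 40. Among 58 genes of cyclins, cyclin-dependent kinases and their inhibitors 4 were higher and 11 lower (6.9% and 19%), and 4 of the losses held. The median of these 58 genes was nevertheless above 0, at 0.074, with 33 above 0 and 25 below. CDKN1A, the inhibitor p21, read 38.6 and 52.3 CPM with sgControl and 17.3 and 19.7 CPM with sgMETTL13, and CCND1, cyclin D1, 368.0 and 470.6 CPM against 261.5 and 250.4 CPM. CDKN2B also held, as did CDKN2AIPNL, an RNA-binding protein that the symbol pattern caught. Of 26 p53 targets 1 was higher and 6 lower (3.85% and 23.1%). The nuclease AEN read 70.65 and 95.2 CPM against 43.7 and 38.6 CPM, and PHLDA3, a repressor of AKT signalling, 13.1 and 15.05 CPM against 7.21 and 7.79 CPM, and both held with CDKN1A. When sgControl replicate 2 was dropped, 7 cyclin list genes were lower and none higher, and without sgMETTL13 replicate 2, 6 were lower and none higher. For p53 targets, 4 genes were lower in each of the 4 fits of 3 libraries, and 4 were higher without sgControl replicate 1.

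In 6 further lists the shares called higher and lower lay below those of all tested genes (8.94% and 12.0%), in some only slightly. DNA repair gave 7 and 7 of 100 (7.0% and 7.0%), and RAB GTPases and regulators 8 and 9 of 104 (7.69% and 8.65%). Genes of RAS, RAF and MAP kinases gave 5 and 7 of 77 (6.49% and 9.09%), and phosphatase genes 6 and 11 of 118 (5.08% and 9.32%). Glycolysis and the pentose phosphate pathway gave 1 and 2 of 37 (2.7% and 5.41%), and mitochondrial carriers 1 and 1 of 37 (2.7% and 2.7%). Without sgMETTL13 replicate 2 these 6 lists gave 0 to 2 higher and 0 to 3 lower genes each, without sgControl replicate 2, 0 to 2 and 0 to 6, and without sgControl replicate 1, 3 to 18 and 3 to 16.

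**Figure D2:**
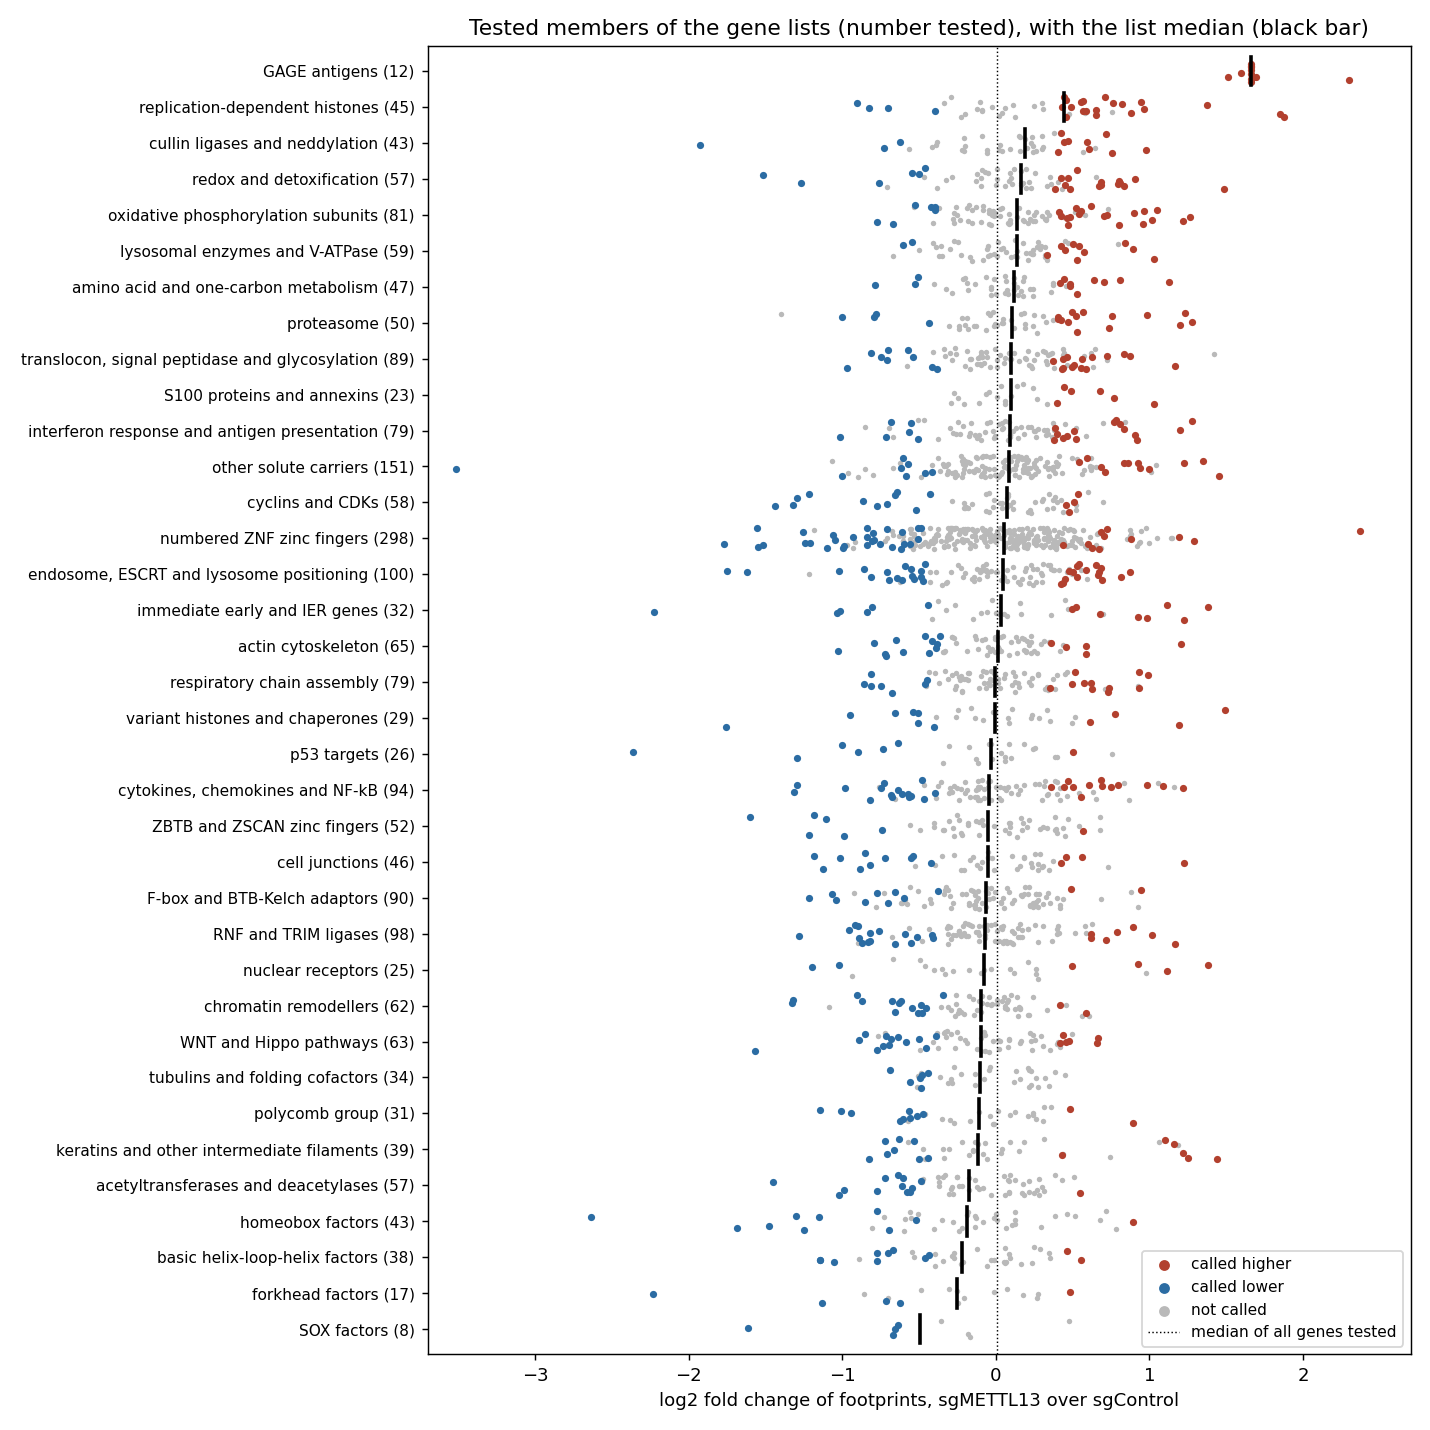
Log2 fold change of footprints (horizontal axis, sgMETTL13 over sgControl) for each tested member of 36 gene lists, ordered by list median (black bar), with the number tested in parentheses: red points were called higher, blue lower and grey not called. The SOX, forkhead, helix-loop-helix and homeobox lists are the lowest, with medians of -0.49 to -0.19, and apart from the GAGE antigens the replication-dependent histones are the highest at 0.44; most lists hold both red and blue points.

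The share of lower calls was larger in genes with GC-rich promoters, given here as a description without a test. RefSeq gave a window of 250 bases before to 50 bases after the start for 8880 of the tested genes. In the quintile of genes with the lowest GC share of this window (at most 57.0%), 11.3% were higher and 8.33% lower. In the quintile with the highest (73.3% to 94.0%), 4.67% were higher and 15.3% lower, and the median log2 fold change went from 0.06 to -0.09. Held calls numbered 47 higher and 32 lower in the lowest quintile and 17 and 70 in the highest. A run of 8 or more G or C (either strand reads the same) stood in the 100 bases before the start of 74.8% of genes with a window, 59.2% of held gains and 80.4% of held losses. In the highest quintile the lower genes numbered 103 without sgControl replicate 2 and 94 without sgMETTL13 replicate 2, and the higher ones 32 and 19. sgControl replicate 2 differed from replicate 1 by -0.02 in the median of the lowest quintile and by 0.03 in that of the highest, a smaller range with the opposite slope. Replicate 2 also enters the sgControl level, so a rise in it lowers the fold change, and the 2 slopes are not independent. The ratio of CpG pairs observed to those expected from the base content showed no gradient, with 188 to 224 lower genes in every quintile.

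The share of calls was larger in short genes than in long ones, again without a test. In the quintile of tested genes with the smallest genomic span (276 to 10900 bases from start to end, introns included) 10.5% were higher and 18.9% lower, and 72 gains and 117 losses held. In the quintile with the largest span (98200 bases or more) 7.33% were higher and 6.02% lower, and 15 and 30 held. Median span was 18500 bases among lower genes, 32000 among higher genes and 36500 among genes not called. The median log2 fold change ran from -0.09 in the shortest to 0.09 in the longest quintile, and the difference of sgControl replicate 2 from replicate 1 ran from 0.065 to -0.03. In the shortest quintile the lower genes numbered 174 without sgControl replicate 2 and 165 without sgMETTL13 replicate 2, and the higher ones 115 and 85. The part of this difference between control replicates in the gradients was not tested.

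**Figure D3:**
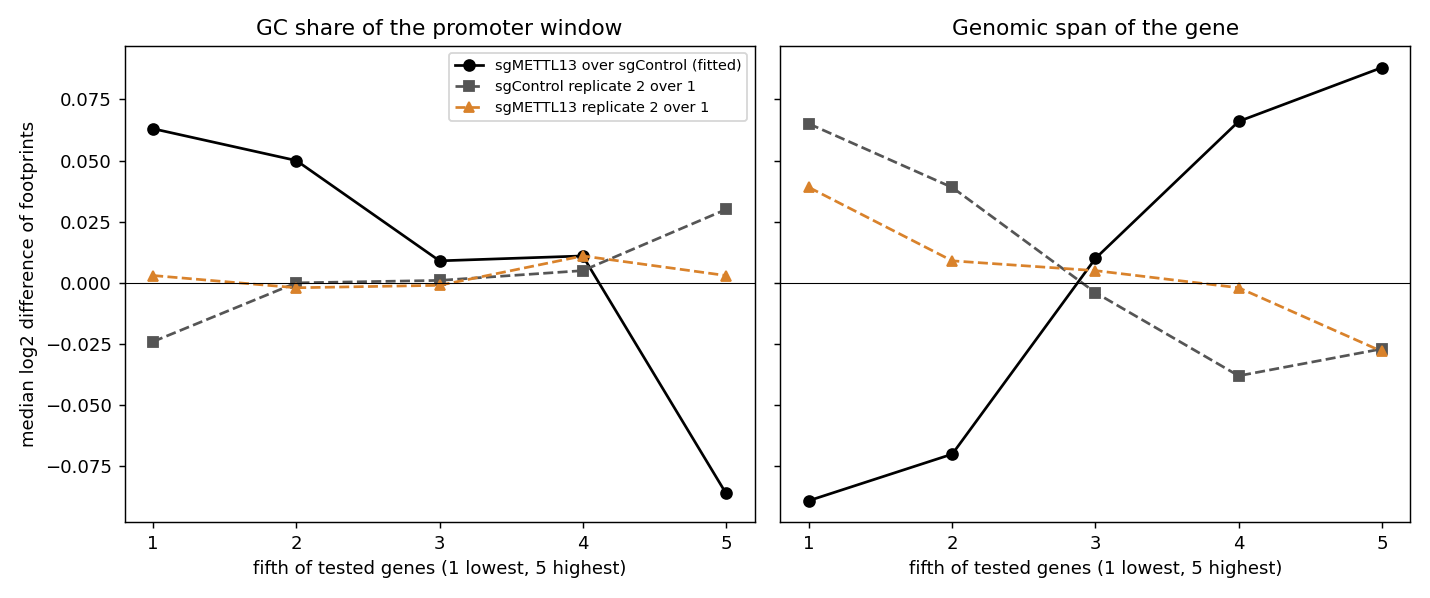
Median log2 difference of footprints in quintiles of the tested genes, by GC share of the promoter window (left) and by genomic span (right): black circles show sgMETTL13 over sgControl, grey squares sgControl replicate 2 over 1, and orange triangles sgMETTL13 replicate 2 over 1. The black line falls from 0.06 to -0.09 with promoter GC and rises from -0.09 to 0.09 with span, and the grey line slopes the opposite way in both panels. sgControl replicate 2 enters both lines, so their slopes are not independent.

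Losses were also uneven across chromosomes. Chromosome 19 had 20 higher and 162 lower of 693 tested genes, or 2.89% and 23.4%. Its numbered ZNF genes, a clustered family of zinc finger repressors, differed from its other genes: 5 of 123 were higher and 4 lower with a median of 0.21, whereas 15 of the 570 others were higher and 158 lower (27.7%) with a median of -0.26. On chromosome 19 mRNA split the same way, with a median log2 difference of 0.296 for the ZNF genes and -0.085 for the others. UBE2M, MBD3, GTF2F1, LMNB2, AP3D1, IER2, BABAM1, SNRNP70 and U2AF2 are among the lower genes there, and 55 of the 158 held. Between sgControl replicates the median difference was 0.16 for the 570 genes and -0.13 for the ZNF genes, again opposite in sign to the difference between groups. A high replicate 2 raises the sgControl level and so lowers the fold change, and the 2 measures are not independent. Over 10714 genes they correlated at r = -0.505, and the part of replicate 2 in the split was not tested. Without sgControl replicate 2 the lower genes among the 570 numbered 73, and without sgMETTL13 replicate 2, 71, with 7 and 1 higher. Chromosomes 16, 22, 17, 20 and 11 also had more lower than higher genes, at 18.9%, 17.5%, 16.3%, 16.3% and 15.7% lower. Chromosomes 4 and 13 had the reverse, with 13.7% and 12.5% higher against 7.07% and 4.17% lower. Across all chromosomes the 298 numbered ZNF genes had a median of 0.055 and pooled called shares below those of all tested genes (8.94% and 12.0%). The 123 on chromosome 19, at 3.25% lower, pull the pooled lower share down, so it does not describe this family on the other chromosomes. All 298 together gave 11 higher and 29 lower, or 3.69% and 9.73%. These were 2 and 10 without sgControl replicate 2, 2 and 9 without sgMETTL13 replicate 2, and 20 and 34 without sgControl replicate 1.

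**Figure D4:**
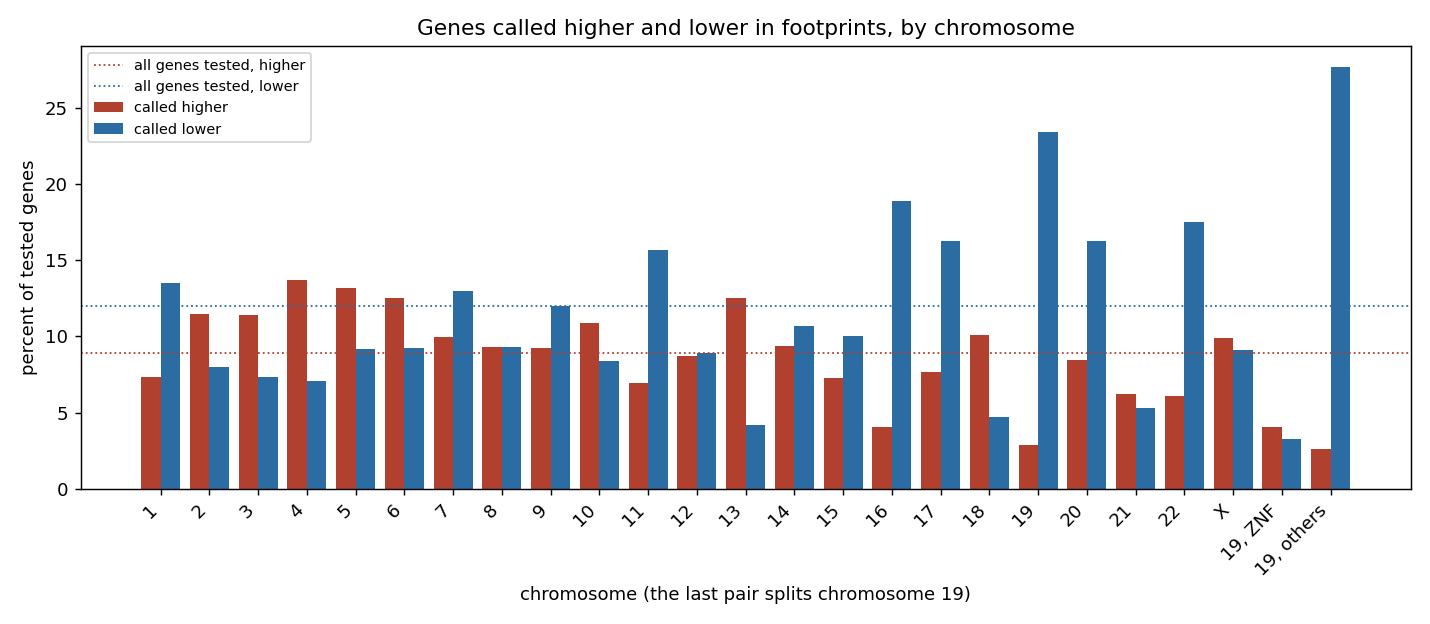
Percent of tested genes called higher (red bars) and lower (blue bars) in sgMETTL13 footprints on each chromosome, with dotted lines at 8.94% and 12.0% for all tested genes; the last pair of groups splits chromosome 19 into numbered ZNF genes and all others. Chromosome 19 has the tallest blue bar of any chromosome at 23.4%, and its ZNF genes stand at 3.25%.

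RNA-seq of the same groups gives the mRNA beside these footprints as a description, without a test. The 2 sgMETTL13 RNA libraries differed widely, with an SD of the log2 difference of 0.851 against 0.344 in sgControl (on CPM plus 1, 10446 genes). Higher genes had a median mRNA difference of 0.28 on the log2 scale, with 737 of 920 above 0, and lower genes one of -0.05, with 755 of 1262 below 0; among genes not called the median was 0.05. Several leading losses had mRNA that was higher with sgMETTL13 or overlapped between groups. FOXD1 mRNA read 42.6 and 42.3 CPM with sgControl and 47.1 and 55.4 CPM with sgMETTL13, IER5L 55.7 and 60.7 CPM against 44.9 and 66.3 CPM, and UBE2M 241.9 and 274.5 CPM against 191.7 and 272.7 CPM. FOXD1 mRNA was thus above sgControl in both sgMETTL13 libraries while its footprints were below it in both. Not all leading losses were of this kind. In NKX1-2, named first among the losses, mRNA was lower in both sgMETTL13 libraries, at 23.4 and 26.6 CPM against 22.05 and 16.4 CPM. BCL11A mRNA was also lower in both, with a log2 difference of -0.46. Among gains, H2BC21 mRNA read 16.5 and 19.8 CPM against 16.7 and 15.98 CPM and SLC7A6 mRNA 54.5 and 63.5 CPM against 64.1 and 53.8 CPM, although poly(A) libraries capture histone mRNA poorly. For SLC38A2 the mRNA read 495.9 and 524.1 CPM against 1594 and 420.6 CPM, so 1 library decides its mRNA difference. Other gains had higher mRNA in both sgMETTL13 libraries. CCN1 mRNA read 215.0 and 247.4 CPM against 355.2 and 388.1 CPM, and CCN2 mRNA 58.3 and 67.6 CPM against 124.1 and 112.4 CPM. Among the 920 higher genes the mRNA difference was below 0 in 183. METTL13 mRNA was lower by about as much as its footprints (log2 difference -1.42).

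**Figure D5:**
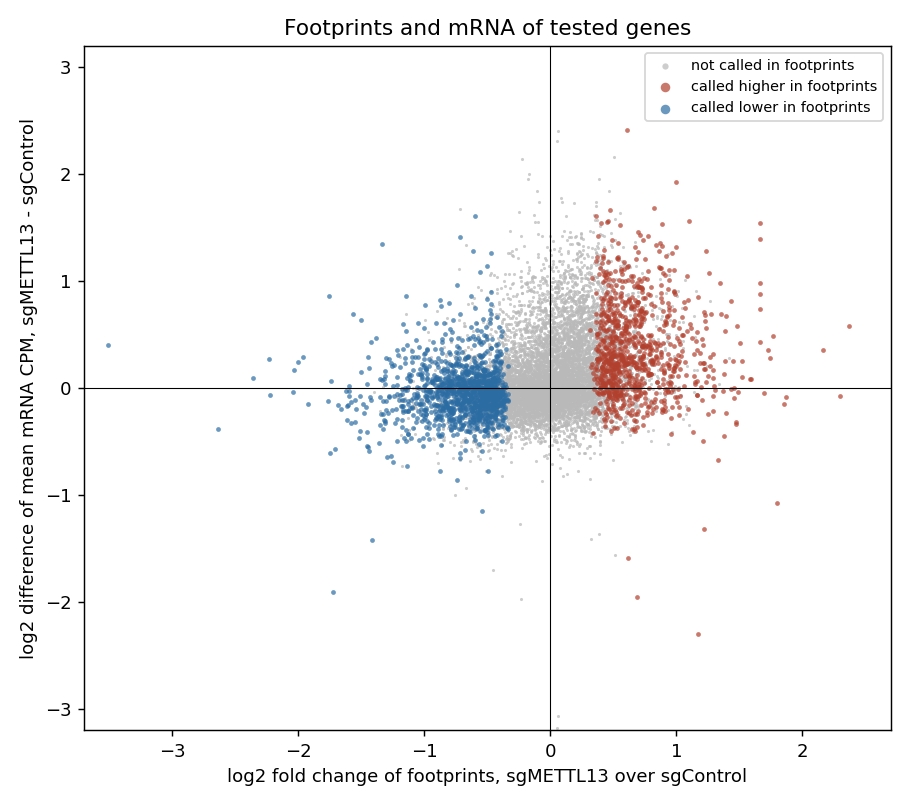
Log2 fold change of footprints (horizontal axis) against the log2 difference of mean mRNA CPM (vertical axis), sgMETTL13 over sgControl, for the 10446 tested genes with both values; 3 genes lie outside the axes. Genes called higher in footprints (red) lie mostly above the zero line of mRNA, 737 of 920, and genes called lower (blue) spread around it, 755 of 1262 below.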

How the data were processed

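The authors deposited 1 table of raw counts, with a row for each gene symbol and a column for each of 8 libraries. Cutadapt 1.18, UMI-tools, Bowtie 1.2.2, HISAT2 2.0.4, featureCounts and the build hg38 are named in the submitters' processing notes; the order of these tools, the annotation and the treatment of reads with several matches are not given in the sources used here. The 4 footprint libraries were fitted with edgeR 4.0.16 (R 4.3.3): TMM factors, the default expression filter, quasi-likelihood F test, Benjamini-Hochberg adjustment over 10714 genes. Standard errors were taken as log2 fold change divided by the root of F, and CPM are TMM-scaled. No replicate block was used. The fit was tested on simulated data. DESeq2 1.42.0, other scalings and filters, a replicate block, a fit of all libraries and fits without 1 library were alternatives.

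The gene lists and the members described were chosen with earlier results of these data known; the lists are described by counts and medians, with no set test. Named genes are, outside the translation machinery, the 20 largest rises and the 20 largest falls among calls whose groups did not overlap and whose mean reached 5 CPM, METTL13, and up to 4 members per list by adjusted p; further members were named after their values were seen. mRNA values are log2 differences of mean CPM. Promoters and coordinates come from RefSeq (GRCh38.p14), and protein sequences were not used here. A few genes and 1 gene list are not reported here.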

Additional observations from a re-analysis of the deposited data

How the results depend on the processing

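The number of calls depended on the libraries and the model. With 1 library left out, the higher genes numbered 254 to 1404 and the lower genes 447 to 1614. DESeq2 called 589 higher and 846 lower. A single model over all 8 libraries called 0 in either direction by edgeR's test, with 440 higher and 589 lower at an unadjusted p below 0.05. RLE factors, upper-quartile factors, library totals alone, no filter on low counts and a mean of at least 5 CPM kept both counts within 1.5 times those reported, at 889 to 1196 higher and 1034 to 1285 lower. The replicate number as a block left 716 higher and 1013 lower; same-numbered libraries deviated apart (r = -0.182 over 10714 genes, not independent of each other) and the labels do not pair them. Of 159 named genes, none changed sign under any alternative run. Apart from METTL13, these genes were chosen from the calls of these data, some on condition that the groups did not overlap. The sign of such a gene can hardly change when 1 library is left out or libraries are rescaled. The unchanged signs are therefore no separate check of direction. Calls were lost in 159 with all 8 libraries, 19 without sgMETTL13 replicate 2, 13 without sgControl replicate 2, 6 of the 150 to which DESeq2 gave an adjusted p, 9 without sgMETTL13 replicate 1, 4 without sgControl replicate 1 and 4 with the block. The cause of these losses was not tested, other than that fits of 3 libraries rest on fewer samples. Planned descriptions by protein length and residue content were not run. Genes with few footprints were called less often. The lowest quintile by footprint level, at 0.803 to 5.38 CPM, lay above the floor of 0.305 to 0.495 CPM. Of its genes 4.06% were called higher, against 12.6% in the highest quintile. Depth may limit these calls, and its part was not tested.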

Other observations

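Ribosome biogenesis and RNA modification, which lie next to the translation machinery, had more losses than gains. At least METTL13 of the second list was also counted with the machinery. Of 87 ribosome biogenesis genes 10 were higher and 18 lower (11.5% and 20.7%), against 8.94% and 12.0% over all tested genes, with 2 and 5 held. The ribosome assembly factor BOP1 read 327.5 and 430.4 CPM with sgControl and 221.2 and 195.8 CPM with sgMETTL13, and the nucleolar chaperone NPM1 went the other way, at 325.9 and 260.1 CPM against 476.1 and 542.3 CPM. Of 98 genes of tRNA and RNA modification, METTL13 among them, 7 were higher and 15 lower (7.14% and 15.3%), with none and 5 held, and their median of 0.006 was near that of all genes, 0.009. DUS1L, which reduces uridine in tRNA, fell by 0.87, and QTRT1, a subunit of the enzyme that inserts queuine into tRNA, by 0.90. Without sgControl replicate 2 the first list gave 4 higher and 7 lower and the second 0 and 8, and without sgMETTL13 replicate 2 they gave 2 and 5, and 0 and 7. Without sgControl replicate 1, 16 RNA modification genes were higher, and without sgMETTL13 replicate 1, 3.

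Splicing genes were called at shares near those of all tested genes: 8 higher and 11 lower of 77 in the snRNP and core spliceosome list (10.4% and 14.3%), and 5 and 6 of 58 SR and hnRNP genes (8.62% and 10.3%). Without sgControl replicate 2 these were 2 and 3, and 3 and 2, without sgMETTL13 replicate 2, 2 and 3, and 3 and 1, and without sgControl replicate 1 the lower ones numbered 19 and 12; without sgMETTL13 replicate 1, 3 SR and hnRNP genes were higher. SF3B6, a small subunit of the U2 particle, rose from 70.5 and 55.9 CPM to 115.2 and 145.6 CPM and held, while U2AF2, which binds the polypyrimidine tract, fell from 597.1 and 722.8 CPM to 405.7 and 374.3 CPM, and SNRNP70 of the U1 particle from 640.3 and 812.2 CPM to 438.1 and 441.1 CPM. The Mediator of transcription gave 5 higher and 1 lower of 33 (15.2% and 3.03%), or 1 and 1 without sgControl replicate 2 and 1 and 0 without sgMETTL13 replicate 2. MED28 rose by 1.01 and held, and MED19, the lower member, fell by 0.60 without holding.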
